A study of Mus musculus with 6 samples.

Results

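The dual-specificity MAPK phosphatases are enzymes that switch off mitogen-activated protein kinases (MAPKs) by removing phosphate from both the threonine and the tyrosine of the activation loop. The genes described here are *Dusp1*, *Dusp2*, *Dusp4*, *Dusp5*, *Dusp6*, *Dusp7*, *Dusp8*, *Dusp10*, *Dusp14* and *Dusp16*, taken by gene symbol. All 10 were found among the 54532 genes of the deposited table. They were measured by RNA-seq in ovarian granulosa cells (GCs), the cells that surround the oocyte in the follicle, from female ICR mice that were 3 weeks old and had been primed with pregnant mare's serum gonadotropin (PMSG). Mice of one group then received a single intraperitoneal injection of cyclophosphamide (CTX), an alkylating drug whose metabolites crosslink DNA, and mice of the other received the same volume of phosphate buffer saline (PBS). GCs were collected 6 h later, with 3 samples per group, each pooled from 3 mice, so that the spread between samples is that between pools. The comparison asks whether these genes differed between CTX and PBS GCs.

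MAPKs act in 3 main branches, ERK, JNK and p38. ERK is best known for responses to growth factors and, in GCs, to gonadotropins and EGF-like ligands, and it is needed for ovulation. JNK and p38 respond to stress, DNA damage included. Many of the phosphatase genes are themselves switched on by the kinases that their products turn off, so that they form negative feedback loops. By location and preferred substrate, the products fall into a nuclear inducible group (*Dusp1*, *Dusp2*, *Dusp4* and *Dusp5*), a cytoplasmic group with a preference for ERK (*Dusp6* and *Dusp7*), and a group with a preference for JNK and p38 (*Dusp8*, *Dusp10* and *Dusp16*). *Dusp14* encodes a small atypical member that lacks the kinase-binding domain of the others.

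Levels are in FPKM, fragments per kilobase of gene length scaled to depth, and can be compared between genes. Rebuilt from them, the reads came to between 16005869 and 18455011 per sample. GC markers were abundant in all 6 samples, led by *Inha*, a subunit of inhibin, at 8556 to 10402 FPKM. The list of 10 GC markers summed to 13521 to 14823 FPKM after PBS and 11510 to 12436 FPKM after CTX. In 8 of the 10 all CTX values were below all PBS values. This was seen in 14.1% of the genes tested, which are those with a mean of at least 0.5 FPKM. CTX replicate 2 stood apart from the other 5 samples. It lay at 74.7 on the first principal component, against -26.6 to 13.2, and was the lowest sample in 7 of the 10 GC markers and the highest in 1. Among the 3 CTX samples alone, CTX replicate 2 was lowest in 37.6% and highest in 41.3% of the genes tested. Without *Inha*, the GC markers summed to 2330 FPKM in it, to 2963 and 3504 FPKM in CTX replicates 3 and 1, and to 4310 to 4468 FPKM after PBS. A list of 10 leukocyte markers, led by *Lyz2*, summed to 68.1 FPKM in it and to between 22.3 and 36.7 FPKM in the other 5 samples, and CTX replicate 2 was the highest sample in 6 of the 10. No marker of that list was at 0 in all samples, and *Ptprc*, the pan-leukocyte marker named here after its values were seen, was below 0.1 FPKM in each. The endothelium and erythrocyte lists, led by *Cdh5* and *Hba-a1*, had their lowest sums in CTX replicate 2. These were 3.21 and 131 FPKM, against 6.42 to 8.03 and 312 to 490 FPKM in the other 5. CTX replicate 2 was the lowest sample in 5 of the 7 endothelium and 3 of the 4 erythrocyte markers, and the highest in 0 of them. The theca and stroma list, led by *Cyp17a1*, summed to 29.2 FPKM in it and 51.5 to 70.6 FPKM in the others, but without *Cyp17a1* to 28.0 FPKM, against 21.3 to 22.5 FPKM after PBS and 39.0 and 41.0 FPKM in the other CTX samples. *Acta2*, the smooth muscle actin of that list, was the DEG among all cell markers (log2 fold change 1.08; limma, adjusted p = 0.0166), and is named after its values were seen. The oocyte list, led by *Gdf9*, ran from 35.8 FPKM in PBS replicate 1 to 90.7 FPKM in CTX replicate 2. The part of these other cells in the results below was not tested, and in such bulk samples fewer cells of a type and less RNA per cell cannot be told apart. The results are therefore also given without CTX replicate 2.

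The 10 phosphatase genes had log2 fold changes of CTX over PBS from 0.21 to 1.21, though that of *Dusp14* fell to -0.0041 without CTX replicate 3. *Dusp2* passed the filter on low values (a mean of 0.5 FPKM) only through its CTX samples, so that its higher level there follows in part from the filter. It is left out of the counts of direction, overlap and unadjusted p and of the median below. All of the other 9 had a positive log2 fold change, as did 48.6% of the genes tested. The median of the 9 was 0.87, against -0.01 over the 14463 genes tested. *Dusp10* was a differentially expressed gene (DEG), that is, past an adjusted p of 0.05 with a change of more than 2-fold, which held for 0.802% of the genes tested in this direction. *Dusp5* also passed the adjusted p, at a change below 2-fold, and 1.4% of the genes tested passed it at any fold in this direction. No phosphatase gene was a DEG in the other direction in limma, where the background is 0.159%, and none passed the adjusted p in that direction, where it is 0.36%. voom gave 0 DEGs lower after CTX as well. At an unadjusted p-value below 0.05, 6 of the 9 were higher and 0 lower after CTX, against 10.5% and 9.10% of the genes tested. In 5 of the 9 (*Dusp4*, *Dusp5*, *Dusp6*, *Dusp10* and *Dusp16*), the lowest CTX value exceeded the highest PBS value, a pattern seen in 15.0% of the genes tested. None had all CTX samples below all PBS samples, which was seen in 14.1%. The 10 genes were chosen with earlier results of these data known. The counts and the median beside these shares are therefore a description, not a test. For a single gene, an exact permutation test of 3 samples against 3 cannot give a two-sided p below 0.10.

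In PBS GCs the genes differed widely in level. *Dusp1* was highest, at a mean of 56.5 FPKM, and lay above 95.0% of the genes tested by its mean over all samples. *Dusp5* followed at 11.5 FPKM and *Dusp6* at 8.15 FPKM. *Dusp7*, *Dusp16* and *Dusp10* were between 2.61 and 1.60 FPKM, and *Dusp8*, *Dusp4*, *Dusp14* and *Dusp2* were below 1 FPKM. The sample ranges of neighbours in this order overlapped for *Dusp8* and *Dusp4* and for *Dusp4* and *Dusp14* and were apart for the other 7 neighbouring pairs. In CTX GCs the first 3 places were the same, but the ranges of *Dusp5* and *Dusp6* now overlapped and *Dusp10* ranked at place 4, above *Dusp7* and *Dusp16*, with overlapping ranges. *Dusp2* had the lowest mean in both groups, with a range that overlapped that of *Dusp14* after CTX and not after PBS. Its mean over all samples was 0.534 FPKM and its PBS mean 0.296 FPKM. *Dusp1* made up 65.2% to 67.8% of the summed FPKM of the 10 genes in the PBS samples, 61.6% and 62.9% in CTX replicates 1 and 3, and 45.7% in CTX replicate 2. Without *Dusp1*, the other 9 genes summed to 28.2 to 29.6 FPKM after PBS and 50.5 to 63.4 FPKM after CTX.

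**Figure D1:**
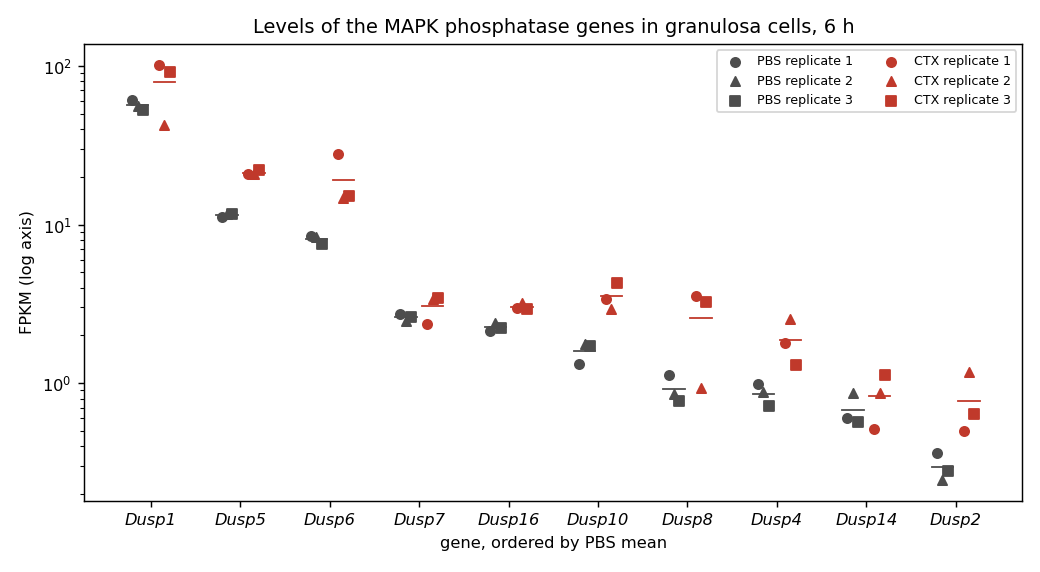
FPKM of the 10 phosphatase genes on a log axis, in order of their PBS mean, with 1 point per sample (grey for PBS, red for CTX, shape for the replicate number) and a line at each group mean. *Dusp1* is highest in both groups, and the 3 CTX points of *Dusp5* lie close together, from 20.7 to 22.0 FPKM, above the PBS points at 11.1 to 11.7 FPKM.

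*Dusp5*, which encodes a nuclear phosphatase that acts on ERK alone, gave the most uniform response. It measured 11.1, 11.7 and 11.7 FPKM in PBS replicates 1, 2 and 3 and 20.7, 20.7 and 22.0 FPKM in the CTX samples. These values rest on 469 to 531 reads per PBS sample and 909 to 973 reads per CTX sample, and the groups were far apart beside the spread within them. The mean rose from 11.5 ± 0.355 to 21.1 ± 0.722 FPKM (mean ± SD, n = 3), a ratio of 1.84. On the log2(FPKM + 0.1) scale, on which all fold changes here are given and which understates the change of low genes, it rose by 0.87 with a standard error of 0.06 (limma with Benjamini-Hochberg adjustment, adjusted p = 0.00248). It kept an adjusted p below 0.05 in each of the 16 alternative fits, the highest being 0.0456 with a block on the replicate number, and its log2 fold change ran from 0.82 to 0.92. *Dusp5* lies on the plus strand of chromosome 19 of GRCm38, from 53529109 to 53542431. The stretch before its RefSeq start is shown because it holds both CArG boxes found next to the phosphatase genes. A CArG box is the site of serum response factor (SRF), which drives many immediate-early genes. The sequence is from RefSeq on GRCm38.p6 (chr19:53528995-53529108, plus strand), and capitals mark the pair of adjoining CArG boxes and the core of a cAMP response element (TGACG, here read on the other strand).
*Dusp5*: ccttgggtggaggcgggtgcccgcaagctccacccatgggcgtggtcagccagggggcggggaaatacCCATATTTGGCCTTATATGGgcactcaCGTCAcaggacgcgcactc

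*Dusp1*, the most abundant of the 10, encodes a nuclear phosphatase with a broad reach over p38, JNK and ERK and is a classical immediate-early gene. It lies on the minus strand of chromosome 17, from 26505590 to 26508519. Its levels were 60.6, 56.1 and 52.8 FPKM in the PBS samples and 102, 42.4 and 91.8 FPKM in CTX replicates 1, 2 and 3. CTX replicates 1 and 3 thus lay above the PBS samples and CTX replicate 2 lay below all of them, so the groups overlapped. The means were 56.5 ± 3.92 and 78.6 ± 31.7 FPKM (mean ± SD, n = 3), with a log2 fold change of 0.38 ± 0.32 (SE; limma adjusted p = 0.527). Without CTX replicate 2 the log2 fold change was 0.77 (adjusted p = 0.00906, limma), and without CTX replicate 1 it was 0.15 (adjusted p = 0.789, limma).

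*Dusp4*, on chromosome 8 from 34807297 to 34819894, encodes a nuclear phosphatase of ERK and JNK. It measured 0.983, 0.876 and 0.721 FPKM in the PBS samples and 1.79, 2.55 and 1.30 FPKM in the CTX samples, from 32 to 124 reads. All CTX samples lay above the PBS samples, and CTX replicate 2 was the highest. The log2 fold change of 1.01 had a standard error of 0.27 and did not pass the adjusted threshold (adjusted p = 0.137, limma). *Dusp2*, on chromosome 2 from 127336159 to 127338376, whose product is best known from activated leukocytes, was counted from 13, 9 and 9 reads in the PBS group, against 18, 42 and 23 in the CTX group. That corresponded to 0.364, 0.245 and 0.277 FPKM and to 0.496, 1.18 and 0.641 FPKM. CTX replicate 2 was again the highest, as it was among the CTX samples in 41.3% of the genes tested. A part of leukocytes in these values was not tested. The groups did not overlap, and the log2 fold change was 1.08 ± 0.40 (SE; limma adjusted p = 0.220). Without that sample the log2 fold changes of *Dusp4* and *Dusp2* were 0.77 and 0.76, with adjusted p-values of 0.153 and 0.379 (limma).

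Among the phosphatases with a preference for cytoplasmic ERK, *Dusp6*, a textbook feedback target of ERK signalling, measured 8.46, 8.39 and 7.59 FPKM in the PBS samples and 27.6, 14.7 and 15.1 FPKM in the CTX samples. The groups did not overlap, and CTX replicate 1 was well above the other two. The gene lies on chromosome 10 from 99263231 to 99267489. Its means were 8.15 ± 0.484 and 19.1 ± 7.36 FPKM (mean ± SD, n = 3), a ratio of 2.35. The log2 fold change of 1.16 (standard error 0.24) missed the adjusted threshold with an adjusted p = 0.0854 (limma). Leaving out the sample that was highest, CTX replicate 1, gave a log2 fold change of 0.86 with an adjusted p of 0.0108. Leaving out CTX replicate 2 gave 1.32 with an adjusted p of 0.0421 (limma with Benjamini-Hochberg adjustment). Without CTX replicate 3 the adjusted p was 0.160, and without a PBS sample it was 0.254 to 0.306 (limma). It was below 0.05 in 2 of the 6 fits with a sample left out, and in 3 of all 16 alternatives. *Dusp7*, the closest relative of *Dusp6* among the 10, lies on chromosome 9 from 106368632 to 106375724 and had PBS values of 2.47 to 2.74 FPKM. Its CTX values were 2.37, 3.39 and 3.46 FPKM, and the groups overlapped. Its log2 fold change was 0.21 ± 0.17 (SE; limma adjusted p = 0.502).

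*Dusp10*, which encodes a phosphatase of JNK and p38, was the DEG of the set. It measured 1.33, 1.78 and 1.70 FPKM in PBS replicates 1, 2 and 3, and 3.37, 2.93 and 4.26 FPKM in the CTX samples. The lowest CTX sample was well above the highest PBS sample, with 72 to 99 reads per PBS sample and 158 to 232 reads per CTX sample. The mean rose from 1.60 ± 0.240 to 3.52 ± 0.677 FPKM (mean ± SD, n = 3), a ratio of 2.20, and the log2 fold change was 1.08 ± 0.18 (SE; limma adjusted p = 0.0483). The call sat at the threshold. It was a DEG in 4 of 15 alternative fits and had an adjusted p below 0.05 in 5 of them, over a range of 4.3e-04 to 0.187. Leaving out each of the 6 samples in turn kept the adjusted p below 0.05 in 1 case, without CTX replicate 2 (0.0242), and with a block on the replicate number it was 0.145. *Dusp10* lies on the plus strand of chromosome 1 from 184013302 to 184075636. On the opposite strand lies *1700056E22Rik*, which shares 0 exonic bases with it in GENCODE M21 and had a log2 fold change of 0.82 (adjusted p = 0.0778, limma). Whether counting used the strand is not given in the sources used here. The stretch before the RefSeq start, which is an internal start of the annotated gene, is shown beside that of *Dusp5* because it lacks CArG and CRE letters (chr1:184034231-184034380 of GRCm38.p6, plus strand). Capitals mark a CCAAT box read on the other strand.
*Dusp10*: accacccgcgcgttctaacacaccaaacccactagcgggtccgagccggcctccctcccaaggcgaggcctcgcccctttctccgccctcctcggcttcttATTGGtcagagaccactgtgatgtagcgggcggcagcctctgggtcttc

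*Dusp8*, another gene for a JNK and p38 phosphatase, had the highest mean log2 fold change of the 10 and the widest spread. It lies on the minus strand of chromosome 7, from 142079490 to 142095843. Its PBS values were 1.12, 0.851 and 0.773 FPKM, and its CTX values were 3.55, 0.926 and 3.27 FPKM. CTX replicates 1 and 3 were 3.88 and 3.57 times the PBS mean, and CTX replicate 2 was 1.01 times the PBS mean, within the PBS range. The log2 fold change was 1.21 ± 0.50 (SE; limma adjusted p = 0.252). Without CTX replicate 2 it was 1.80 (adjusted p = 0.00798, limma), the largest of the set in that fit. That was the 1 case of 6 with a sample left out in which *Dusp8* had an adjusted p below 0.05. In the others it ran from 0.312 to 0.501 (limma). *Dusp16*, the third gene of the group, had the smallest spread of it and lies on chromosome 6 from 134715468 to 134792625. Its PBS values were 2.12, 2.39 and 2.23 FPKM and its CTX values 2.96, 3.22 and 2.91 FPKM, from 282 to 446 reads per sample. The groups did not overlap, and the log2 fold change was 0.42 ± 0.10 (SE; limma adjusted p = 0.121). *Dusp14*, the atypical member, on chromosome 11 from 84048041 to 84069261, was low at 18 to 39 reads per sample. Its PBS values of 0.571 to 0.869 FPKM lay within its CTX range of 0.511 to 1.12 FPKM. The log2 fold change of 0.22 ± 0.34 (SE; limma adjusted p = 0.733) was smaller than its error.

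**Figure D2:**
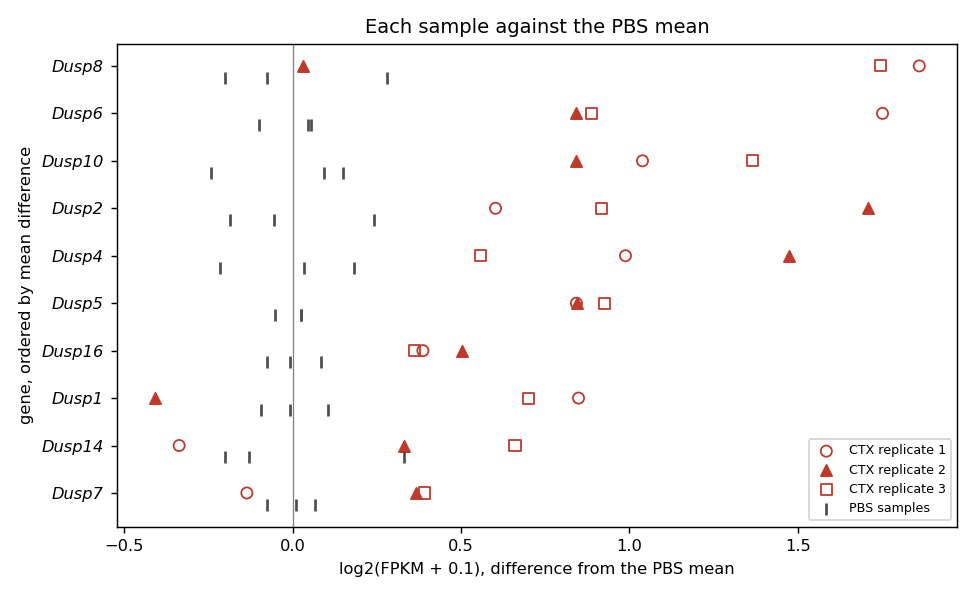
Difference of each sample from the PBS mean on the log2(FPKM + 0.1) scale, with a red symbol per CTX replicate (replicate 2 filled) and a grey tick per PBS sample, for the 10 genes in order of their mean difference. CTX replicate 2 lies at 0.03 for *Dusp8* and -0.41 for *Dusp1*, and at 1.71 for *Dusp2* and 1.47 for *Dusp4*, where it is the highest sample.

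The genes thus differed in which CTX sample was highest. *Dusp1*, *Dusp6* and *Dusp8* peaked in CTX replicate 1, *Dusp2*, *Dusp4* and *Dusp16* in CTX replicate 2, and *Dusp5*, *Dusp7*, *Dusp10* and *Dusp14* in CTX replicate 3. Across the 14463 genes tested, the highest CTX value fell in CTX replicates 1, 2 and 3 in 37.2%, 41.3% and 21.5% of genes. In 9 of the 10 the log2 values varied more among the CTX samples than among the PBS samples, the exception being *Dusp16*. This held for 69.4% of the genes tested. The median SD of the log2 values was 0.48 among the CTX samples and 0.15 among the PBS samples for the 10 genes, and 0.18 and 0.10 for all genes tested. Without CTX replicate 2, *Dusp6*, *Dusp8* and *Dusp10* were DEGs, *Dusp1* and *Dusp5* had an adjusted p below 0.05 as well, and 0.982% of the genes tested were DEGs and 2.48% past the adjusted p in this direction (limma). In 7 of the 9 genes other than *Dusp2*, the remaining CTX samples then lay above all PBS samples, as they did in 19.3% of the genes tested.

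**Figure D3:**
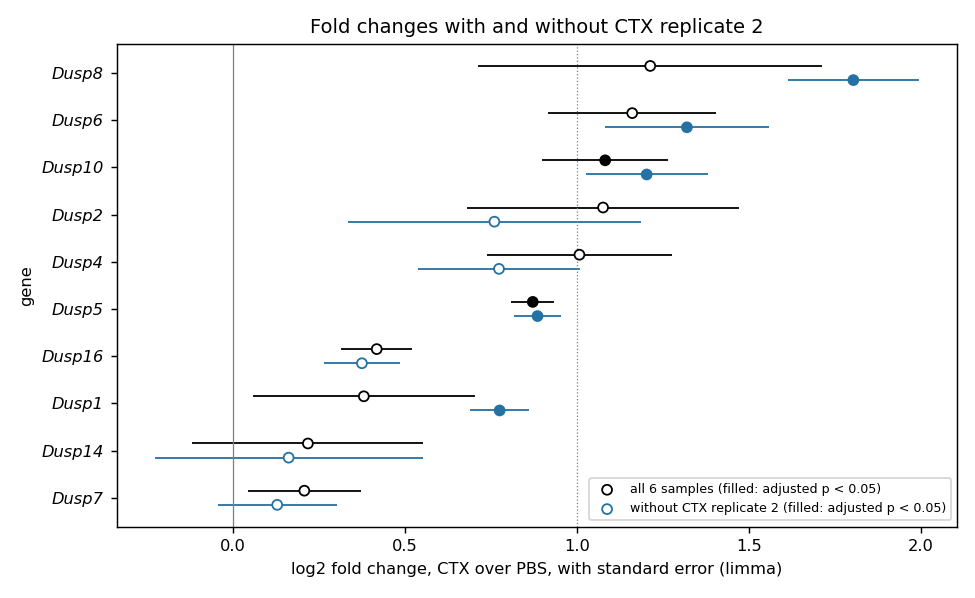
Log2 fold change of CTX over PBS with its standard error from limma, for all 6 samples (black) and without CTX replicate 2 (blue), with filled points at an adjusted p below 0.05 and a dotted line at a 2-fold change. Without that sample *Dusp1* moves from 0.38 to 0.77 and *Dusp8* from 1.21 to 1.80, and *Dusp2* and *Dusp4* move down to 0.76 and 0.77.

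RefSeq promoters, from 250 bases before to 50 bases after the start, were matched for 9 of the 10 genes, all but *Dusp4*. The letters of a whole cAMP response element (CRE, TGACGTCA, the site of CREB and its relatives) were found in the promoters of *Dusp1* and *Dusp8*, and in 1.79% of 32817 promoters. Those are also the genes in which CTX replicates 1 and 3 lay above, and CTX replicate 2 did not lie above, the PBS samples. This was seen after the values were known, and a match of letters is a description, not a site in use. How often other genes, with or without a CRE, had that pattern was not counted, and a link was not tested. The stretches are printed to show the number and place of the CREs, in capitals, together with a CCAAT box read on the other strand in *Dusp8*. They come from RefSeq on GRCm38.p6 and both are on the minus strand, where that of *Dusp8* lies in an intron of the longer annotated gene, at chr17:26508520-26508622 for *Dusp1* and chr7:142095285-142095434 for *Dusp8*.
*Dusp1*: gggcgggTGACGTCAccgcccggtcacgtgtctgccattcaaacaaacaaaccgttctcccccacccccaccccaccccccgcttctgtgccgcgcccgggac
*Dusp8*: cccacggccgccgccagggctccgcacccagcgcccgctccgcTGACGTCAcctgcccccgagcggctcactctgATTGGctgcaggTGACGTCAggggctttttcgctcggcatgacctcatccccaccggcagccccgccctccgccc

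The single CRE of *Dusp1* begins at position -143 and those of *Dusp8* at -107 and -63, counted from the RefSeq start. The CRE core (TGACG), which every whole CRE contains, was present in 5 of the 9 promoters (*Dusp1*, *Dusp2*, *Dusp5*, *Dusp8* and *Dusp16*) and in 20.8% of all promoters. A CArG box was present in that of *Dusp5* alone, where 2 adjoin at -82 and -72, and in 1.63% of all promoters. GC boxes (GGGCGG) were present in 8 of the 9, *Dusp6* being the exception, and in 35.6% of all promoters. CCAAT boxes were present in 5 of the 9 (*Dusp6*, *Dusp7*, *Dusp8*, *Dusp10* and *Dusp16*) and in 37.4% of all promoters. E-boxes (CACGTG) were found in *Dusp1* and *Dusp2* and in 7.15% of all promoters. AP-1 sites, spelled TGANTCA, had a match in 0 of the 9 windows and in 7.81% of all promoters. The decamer of the p53 site also matched in 0 of them, and in 8.36% of all promoters. The same held for TATA boxes, spelled TATAAA, which 13.6% of all promoters contain. Both strands were searched for each motif.

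Genes around the phosphatases in the same pathway were then compared from lists, which were also chosen with earlier results of these data known. Beside the counts of each list below, 0.802% of the genes tested were DEGs higher and 0.159% DEGs lower after CTX. Of 32 tested genes of the MAPK cascade, from Ras to ERK, JNK and p38, 1 was a DEG and none was lower as a DEG, with a median log2 fold change of -0.02 and values from -0.99 to 1.57. The DEG was *Map3k20*, a stress-activated kinase upstream of JNK and p38, which rose from 1.34 ± 0.156 to 4.19 ± 0.390 FPKM (mean ± SD, n = 3), a log2 fold change of 1.57 (limma, adjusted p = 0.00411). The call was lost with a block on the replicate number. *Map2k1*, which encodes a kinase that activates ERK and had the highest mean of the list over all samples, measured 55.1 to 56.7 FPKM after PBS and 54.8 to 56.7 FPKM after CTX. At an unadjusted p below 0.05, 4 of the 32 were higher and 4 lower after CTX, against 10.5% and 9.10% of the genes tested.

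Of the other brakes on ERK signalling, 11 were tested and *Spry2* was the DEG. It encodes a Sprouty protein, which blocks receptor signals upstream of ERK. Its level rose from 6.61, 5.67 and 5.30 FPKM to 14.9, 14.9 and 14.3 FPKM, a log2 fold change of 1.31 ± 0.10 (SE; limma adjusted p = 0.00248). This narrow spread among the CTX samples was like that of *Dusp5*. *Pea15a*, whose product holds ERK in the cytoplasm and which had the highest mean of this list over all 6 samples, though not over the CTX samples, had a log2 fold change of -0.21 (adjusted p = 0.619, limma). The median of the list was 0.17. Of the 11, 2 were higher and 0 lower at an unadjusted p below 0.05, against 10.5% and 9.10% of the genes tested. The median and the higher genes include *Spry1*, named after its values were seen, which passed the filter only through its CTX samples (PBS mean 0.468 FPKM).

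Of 8 tested output genes of ERK, *Ier3* was the DEG, an immediate-early gene that also acts in survival. It measured 56.9, 60.4 and 58.4 FPKM after PBS and 141, 153 and 146 FPKM after CTX, a log2 fold change of 1.32 (limma, adjusted p = 8.2e-04). The median of this list was 0.31. Of the 8, 4 were higher and 0 lower at an unadjusted p below 0.05, against 10.5% and 9.10% of the genes tested. In 4 of the 8 all CTX values were above all PBS values, and in 0 all were below, against 15.0% and 14.1%. Of 7 tested EGF ligands and receptors, 0 were DEGs in limma and in voom, with a median of 0.04. At an unadjusted p below 0.05 there was 1 higher and 1 lower, against 10.5% and 9.10% of the genes tested. *Erbb2*, a receptor of this family and the highest of the list, measured 9.41 to 11.1 FPKM after PBS and 9.31, 18.2 and 10.3 FPKM after CTX.

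In the list of AP-1 and EGR immediate-early genes, which encode transcription factors that MAPKs switch on, 10 of 13 were DEGs, all higher after CTX, with a median log2 fold change of 1.58. They were *Fos*, *Fosb*, *Jun*, *Junb*, *Jund*, *Atf3*, *Egr1*, *Egr2*, *Egr4* and *Ier2*, with log2 fold changes from 1.07 to 3.13. *Egr4*, at a PBS mean of 0.474 FPKM, passed the filter on low values only through its CTX samples. Its higher level there follows in part from the filter. *Fos*, the most abundant over all 6 samples, though below *Jun* in each PBS sample, rose from 393, 390 and 368 FPKM to 1247, 1445 and 1462 FPKM. CTX replicate 2 was in the same range as the other CTX samples for *Fos*, which it was not for *Dusp1*. Nor was it for *Fosl2* of this list, named after its values were seen. *Fosl2* measured 50.5 to 57.5 FPKM after PBS and 65.8, 30.2 and 55.9 FPKM in CTX replicates 1, 2 and 3. In 11 of the 13, *Egr4* included, all CTX values were above all PBS values, against 15.0% of the genes tested. With a block on the replicate number 5 of the 13 were DEGs.

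The other dual-specificity phosphatases had 10 tested genes, and 0 were DEGs in limma and in voom. Their median log2 fold change was 0.02, with values from -0.15 to 0.57. At an unadjusted p below 0.05 there was 1 higher and 0 lower, against 10.5% and 9.10% of the genes tested. *Dusp11*, which acts on RNA and was the most abundant of them, measured 13.6 to 16.2 FPKM after PBS and 14.1 to 14.6 FPKM after CTX. The following genes were chosen after their values were seen. *Dusp9*, which encodes a further cytoplasmic ERK phosphatase, measured 5.79, 5.41 and 6.55 FPKM after PBS and 5.68, 8.51 and 5.89 FPKM after CTX, with a log2 fold change of 0.15 (adjusted p = 0.630, limma). *Dusp18*, an atypical phosphatase, was the gene among the 10 tested in which the groups did not overlap, with a log2 fold change of 0.57 (adjusted p = 0.0740, limma).

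**Figure D4:**
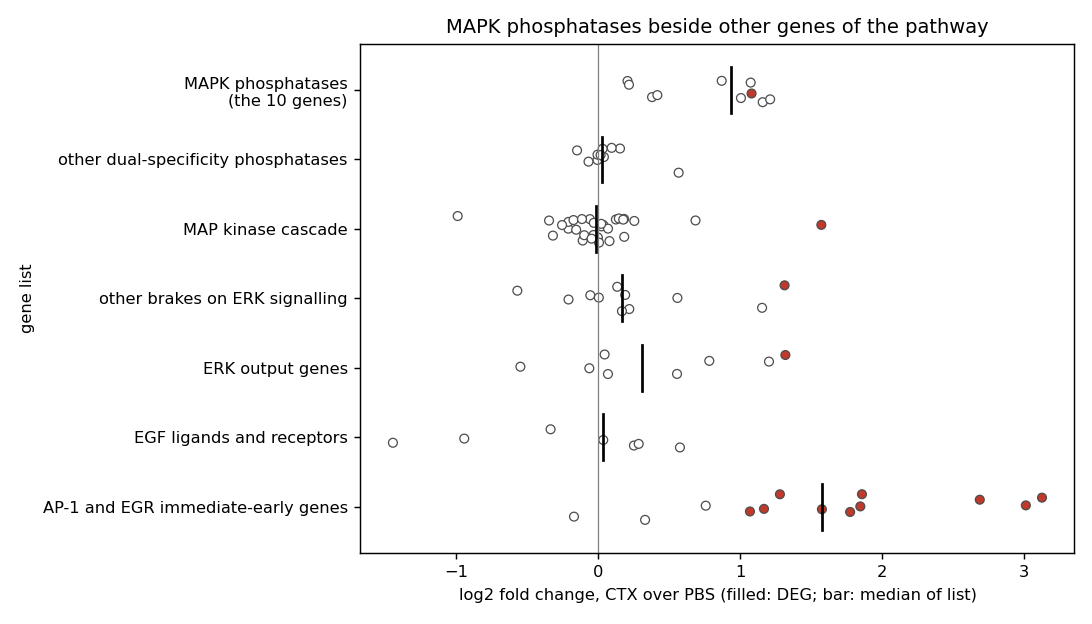
Log2 fold change of CTX over PBS for each tested gene (points, filled for DEGs, spread at random along the vertical) of the 10 phosphatase genes and of 6 lists, with a bar at each median. The phosphatase genes have a median of 0.94 with *Dusp2* and 0.87 without it, between the MAPK cascade at -0.02 and the AP-1 and EGR genes at 1.58.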

How the data were processed

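The authors deposited FPKM values per gene and sample with Ensembl identifiers and mm10 (GRCm38) coordinates. The submitters' processing notes name CASAVA 1.8, fastp, HISAT2 2.0.5, featureCounts 1.5.0-p3 and DESeq2 1.20.0, and the strand setting is not given in the sources used here. The deposited table also holds group means and the fold changes and p-values of the authors' own comparison, which were not used. With gene length put back in, 100% of values below 2000 reads were whole multiples of 1 read (tolerance 0.02 reads), and reads were rebuilt from them. Counting error is all that these reads describe.

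Samples were grouped by their labels, which give no batch. Genes with a mean of at least 0.5 FPKM were compared as log2(FPKM + 0.1) with limma 3.58.1 (lmFit, eBayes with trend) in R 4.3.3, with Benjamini-Hochberg adjustment over all 14463 genes, and tested on simulated data. DEGs passed an adjusted p of 0.05 and a 2-fold change, the study's own thresholds. Alternatives were other pseudocounts, filters, scalings, weights, a replicate block, each sample left out, and limma's voom on rebuilt reads. Counts at an adjusted p alone, and of non-overlapping genes with a sample left out, were added after the data were seen. The 10 genes and all lists were chosen with earlier results of these data known. Named genes are the 10, from each pathway list its DEGs and the gene of highest mean FPKM over all samples, and from each cell list the marker of highest mean. Tables and figures were made in Python 3.11.15 with pandas 2.3.3 and matplotlib 3.10.9. Of the gene coordinates, 9 of 10 equalled those of GENCODE M21, in which *Dusp1* extends further. Promoter stretches printed here stop where an annotated exon begins.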

Additional observations from a re-analysis of the deposited data

How the results depend on the processing

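The number of phosphatase DEGs, 1 in the reported fit, was 0 with 75th percentile scaling, without the eBayes trend, at a mean of at least 5 FPKM (which leaves 3 of the 10 tested), with no filter and with pseudocounts of 0.01 and 1, and 0 with the replicate block. It was 2 with arrayWeights and 2 with no fold threshold. Leaving out single samples gave from 0 to 3 DEGs (3 without CTX replicate 2, 0 without each of the others) and from 1 to 5 genes past the adjusted p. The number past the adjusted p, *Dusp5* and *Dusp10* in the reported fit, was 9 with arrayWeights, which put 19.4% of all genes tested past it in this direction. It was 1 with 75th percentile scaling, without the trend, at a mean of at least 5 FPKM, with no filter, with pseudocount 0.01 and with the replicate block. No phosphatase gene was a DEG lower after CTX in any of these fits. With a sample left out, 5 to 7 of the 9 genes other than *Dusp2* had groups apart, against 17.3% to 23.7% of the genes tested.

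For the lists, the MAPK cascade had 0 DEGs at a mean of at least 5 FPKM, where *Map3k20* is not tested, and 0 with the replicate block. The brakes on ERK had 2 with arrayWeights and 2 without the trend. The ERK output genes had 2 with arrayWeights, 2 at a mean of at least 5 FPKM and 2 with voom, and from 1 to 2 with a sample left out. The EGF list had 1 with arrayWeights, and the AP-1 and EGR list had 5 with the replicate block. With a sample left out, *Dusp14* ranged from -0.0041, without CTX replicate 3, to 0.495, without CTX replicate 1, on the log2 scale. It was highest with arrayWeights, at 0.566. Except where stated, the cause was not tested. The labels do not say that the replicate numbers pair the samples. Deviations from the group means of same-numbered samples had correlations of 0.056, 0.024 and 0.0058 across genes, and the samples hold different mice. Samples of unlike number had correlations from -0.076 to 0.059. With 3 samples per group, this cannot show whether same-numbered samples shared a batch. Below about 50 reads, as for *Dusp2* and *Dusp14*, and for *Dusp4* in the PBS samples, depth limits what can be told.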
